A study of Mus musculus with 5 samples.

Results

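The expression of 10 secreted proteins of the Wnt pathway was followed in cells sorted from dystrophic mouse muscle: 3 ligands (Wnt5a, Wnt5b, Wnt7a), 3 secreted frizzled-related proteins (Sfrp1, Sfrp2, Sfrp4), 2 Dickkopf proteins (Dkk2, Dkk3) and 2 CCN matricellular proteins (Wisp1, Wisp2). The genes were chosen by name, with earlier results of these data known. A probe was taken where it was no control spot and where the gene name of the array design was one of the 10, which gave 11 probes: 9 genes had 1 probe and Wisp1 had 2. They are 10 of 36409 genes and unnamed features on the array. Of the 10, 9 were well above background on all 5 arrays and entered the tests. Wnt7a was above background on 0 of 5 arrays and was not tested. RefSeq now lists Wisp1 and Wisp2 as Ccn4 and Ccn5, and the names of the array design are kept here.

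All mice were mdx (genotype DMD/MDX, strain C57BL/6), which carry a mutation of the dystrophin gene, as in Duchenne muscular dystrophy. For 45 days they were injected intraperitoneally with vehicle or with 0.6 mg/kg of trichostatin A (TSA), which blocks histone deacetylases. Sca1+ interstitial cells (CD34+/a7-integrin+/Sca1+) were sorted from muscle with vehicle (2 arrays) and with TSA (2 arrays), and satellite cells, called MuSC (CD34+/a7-integrin+/Sca1-), from muscle with vehicle (1 array). The mice's age, the number of animals behind an array and whether replicates came from separate animals are not given in the sources used here. The p-values thus reflect the scatter among these arrays alone, and that scatter could be technical. The single MuSC array is assumed to vary like the others. The title of the series names the pro-myogenic activity that these inhibitors promote in Sca1+ interstitial cells of regenerating dystrophic muscle. The arrays allow 3 comparisons: TSA against vehicle in Sca1+ cells, and MuSC against Sca1+ cells of each treatment.

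Wnt ligands are secreted lipid-modified proteins that bind Frizzled receptors. With LRP co-receptors they stabilise beta-catenin, which then acts with TCF/LEF factors in the nucleus. Through other receptors, such as Ror2, they act without beta-catenin. Secreted frizzled-related proteins carry a Frizzled-like domain and bind Wnts outside the cell, and Dickkopf proteins act mainly at the LRP co-receptors. CCN proteins sit in the matrix, and Wisp1 and Wisp2 were named as genes induced by Wnt1. In skeletal muscle, Wnt signals are known to bear on satellite cell expansion and differentiation and on fibrosis, and interstitial fibroadipogenic progenitors are known to secrete Wnt modulators.

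Levels are given as log2 of the background-subtracted (processed) signal of a probe minus the 75th percentile of its array, so that 0 is the 75th percentile of the array's spots. That percentile lay at 235 and 165 in vehicle Sca1+ cells, at 326 and 452 with TSA and at 240 in MuSC, in units of processed signal, which is why unscaled signals are not compared between arrays. Between 58.5% and 66.9% of spots were well above background, no spot was saturated, and replicate arrays correlated at r = 0.985 (vehicle) and 0.983 (TSA) over probes. The replicate number of an array is also its slide: the MuSC array shares slide 1 with the first vehicle and TSA arrays. A probe's brightness depends on its sequence, so each gene is compared with itself across groups and not with other genes. A difference is called where its adjusted p in limma (Benjamini-Hochberg over all genes tested) is under 0.05, and the error given with it is the model's standard error.

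The labels were set against marker lists. In vehicle Sca1+ cells all 15 markers of fibroadipogenic progenitors on the array were above background, with a summed level of 5030 to 7314 on a linear scale where the array's 75th percentile is 1. The sum was 2859 to 3216 with TSA and 493 in MuSC. The 14 satellite cell markers ran the other way, at 19.6 to 21.7, 50.8 to 52.1 and 300.5, or 17.5 to 19.1, 27.7 to 28.0 and 170 without Itga7. Of these Myf5 and Calcr were not above background on any vehicle Sca1+ array. The 14 pericyte and smooth muscle markers summed to 66.0 to 71.3 in vehicle Sca1+ cells, where Myocd and Lmod1 were not above background, to 596 to 648 with TSA and to 1711 in MuSC. The MuSC array thus held both satellite cell markers (Pax7 at 3.48, against -3.77 and -4.51 in vehicle Sca1+ cells) and high smooth muscle markers (Acta2 at 9.33, Myh11 at 5.76). Endothelial markers summed to 149 to 180 with vehicle, 236 to 246 with TSA and 79.0 in MuSC, and macrophage markers to 171 to 240, 128 to 131 and 86.0. The macrophage sum is mostly Itgam (69.0% to 85.1% of it on an array), and 8 of 11 tested markers read higher than in vehicle Sca1+ cells with TSA, and 8 in MuSC, with medians of 0.59 for TSA and 0.62 for MuSC. Schwann cell markers summed to 42.8 to 48.7, 75.5 to 82.3 and 190, and tendon markers to 565 to 675, 443 to 468 and 228. Thbs4 made up 45.1% to 85.1% of the tendon sum, and the median of the 8 tendon markers was 0.05 for TSA and -1.61 for MuSC, where Scx and Egr1 were called higher and 5 lower. Mast cell markers were at 1.85 to 2.19 with vehicle, 29.8 to 32.4 with TSA and 1.29 in MuSC. Ly6a encodes Sca1, on which the populations were separated, so its difference between them is no finding. The gates have both populations positive for CD34 and a7-integrin, but their transcripts differed. Itga7 read 1.35 and 1.09 in vehicle Sca1+ cells, 4.53 and 4.59 with TSA and 7.02 in MuSC, 55.7-fold higher in MuSC than with vehicle (adjusted p = 0.0014) and 10.1-fold higher with TSA (adjusted p = 0.0054). Cd34 read 7.67 and 7.65, 6.85 and 7.05, and 4.47, 9.13-fold lower in MuSC than with vehicle (adjusted p = 0.0022). On such bulk arrays, fewer cells of a type and less RNA per cell cannot be told apart.

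**Figure D1:**
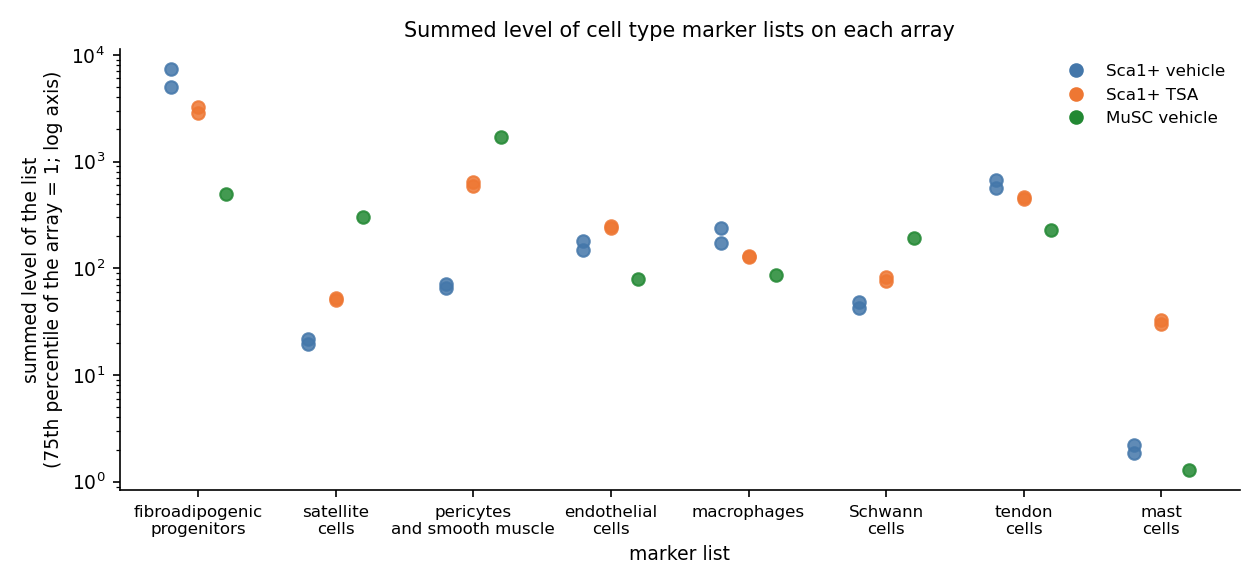
Summed level of 8 cell type marker lists (y axis, log scale, 75th percentile of the array = 1), 1 point per array, for vehicle Sca1+ cells (blue), TSA Sca1+ cells (orange) and MuSC (green). Fibroadipogenic progenitor markers run from 5030 to 7314 through 2859 to 3216 to 493, and smooth muscle markers run from 66.0 to 71.3 through 596 to 648 to 1711. A single gene can make up much of a sum, as Itgam does for macrophages and Thbs4 for tendon cells.

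The members' main pattern was a difference between the 2 sorted populations. In MuSC against vehicle Sca1+ cells, 7 of 9 tested members were lower past the threshold and 0 were higher. Of 26089 genes and features tested in that comparison, 11.7% were called lower and 10.5% higher. Since the members were chosen with earlier results of these data known, setting their counts beside these shares is no test of the set. The median difference of the members was -2.52 on the log2 scale, against -0.04 over all genes tested. With TSA against vehicle in Sca1+ cells, 0 of 9 members were called in either direction by limma, where 2.71% of 26094 genes were called higher and 0.268% lower. There 4 members had an unadjusted p under 0.05, as did 6049 of all genes. The members' median was -0.38, against -0.13 over all genes tested. With normexp background correction 4 members were called lower with TSA (Sfrp4, Dkk2, Wnt5a and Sfrp1), but so were 5875 of all genes, and the higher share of all TSA calls went from 91.0% to 17.6%. Between MuSC and TSA Sca1+ cells, 8 of 9 members were called lower and 0 higher, beside 7.96% and 4.83% of all genes, with a median of -2.34 against 0.12. The higher share of all calls in that comparison was 37.8%, 24.8% without a filter on dim probes and 48.0% with normexp correction. The comparisons share arrays: both with vehicle Sca1+ cells use the same 2 arrays, and both with MuSC the same 1.

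**Figure D2:**
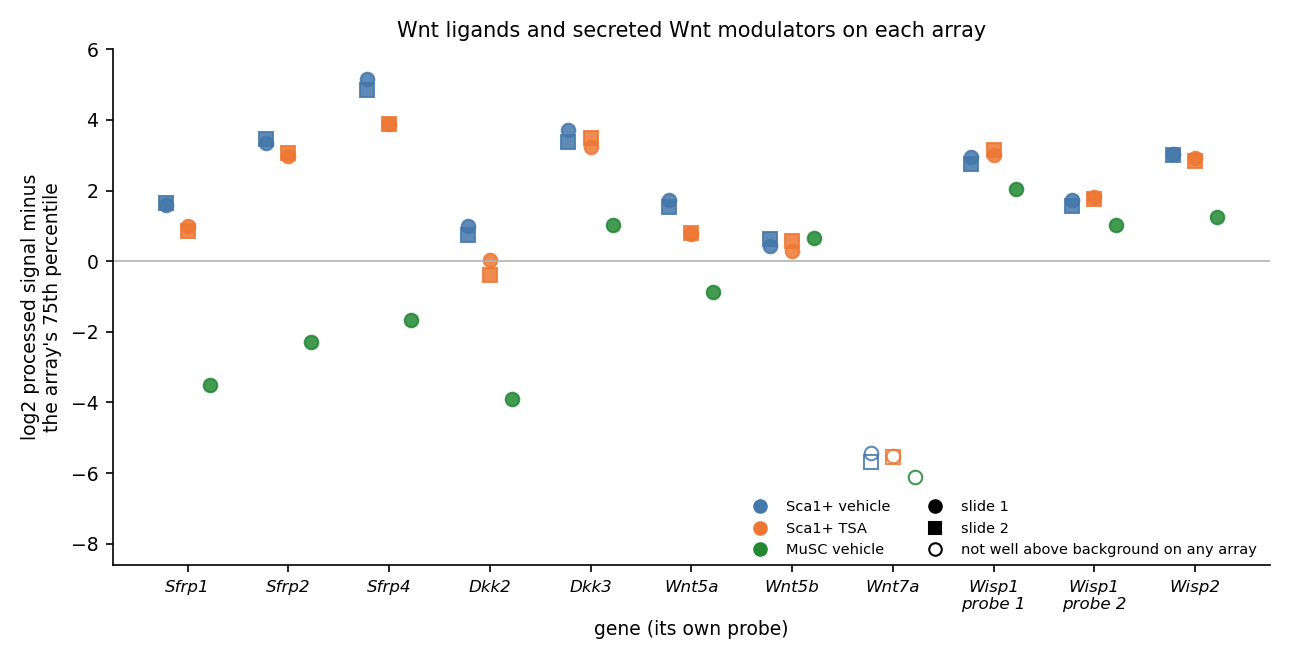
Level of each member on each array (y axis, log2 processed signal minus the array's 75th percentile), by gene on the x axis, with blue for vehicle Sca1+ cells, orange for TSA Sca1+ cells and green for MuSC, circles for slide 1 and squares for slide 2. The MuSC points of Sfrp1, Sfrp2, Sfrp4 and Dkk2 sit at -3.52, -2.29, -1.67 and -3.89, far under their Sca1+ points, those of Wnt5b sit together, and open symbols mark Wnt7a, for which no array was well above background.

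The secreted frizzled-related proteins showed the largest differences between the populations among the members. Sfrp4 binds Wnts outside the cell and is often described in fibrotic tissue. Its probe, at chr13:19724488-19724547 on the plus strand of mm9, was 60 bases long, and its first 30 bases are given here with those of the other 6 members called lower in MuSC than in vehicle Sca1+ cells. The longest run of bases shared by any of the 55 pairs of member probes was 8 bases, so these probes read different sequences.
Sfrp4: cacagttgtctgtgtgcatactgtgtaaga
Sfrp2: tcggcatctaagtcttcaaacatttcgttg
Sfrp1: ttaaaatagtcattccggagagtcagggaa
Dkk2: tcagagtgatgatgtcatcagaagtttata
Wnt5a: cctaacccagaggttaccagcctggttttg
Dkk3: gcctgtaaatcgcatctgaagataccacag
Wisp2: gtatttgtaaaaatacacatctcttaaatg

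Sfrp4 stood at 5.16 and 4.85 in vehicle Sca1+ cells, at 3.88 and 3.88 with TSA and at -1.67 in MuSC. The 3 groups did not overlap, with TSA below vehicle and MuSC far below both. MuSC differed from vehicle Sca1+ cells by -6.67 ± 0.22 on the log2 scale, a 102-fold lower signal (adjusted p = 0.00141), and only 7 of the 26089 genes tested had a lower difference. With normexp correction it was -5.78. The difference of TSA from vehicle was -1.13 ± 0.18, or 2.19-fold lower (adjusted p = 0.0656), with -1.29 on slide 1 and -0.97 on slide 2. That difference was larger than the spread between replicates of either group and did not pass the threshold. It passed under 2 alternatives, with adjusted p = 0.0488 where only probes above background on all 5 arrays were tested and 0.00739 with normexp background correction, and the adjusted p ranged up to 0.321 over the other alternatives.

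Sfrp2, a secreted Wnt modulator expressed by mesenchymal cells, was at 3.35 and 3.45 with vehicle, 2.97 and 3.07 with TSA and -2.29 in MuSC. Its probe lies at chr3:83577864-83577923, plus strand, in mm9. Again the groups did not overlap and MuSC lay far below. The signal was 51.7-fold lower in MuSC than in vehicle Sca1+ cells (-5.69 ± 0.19, adjusted p = 0.00141), or -4.55 on the log2 scale with normexp correction. TSA cells differed from vehicle cells by -0.38 ± 0.15 (adjusted p = 0.237), and by -0.38 on each slide, with a 95% interval from -0.79 to 0.03.

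Sfrp1, the founding member of the family, was at 1.60 and 1.65 with vehicle, 0.99 and 0.85 with TSA and -3.52 in MuSC, with a probe at chr8:24559438-24559497 on the plus strand of mm9. Both TSA arrays were below both vehicle arrays, and MuSC was lowest. In MuSC the signal was 35.3-fold lower than in vehicle Sca1+ cells (-5.14 ± 0.19, adjusted p = 0.00144). The TSA difference was -0.70 ± 0.15 (adjusted p = 0.110), by -0.61 and -0.80 on the 2 slides. With normexp correction, which shrinks differences of dim probes, the MuSC difference of Sfrp1 was -3.06 in place of -5.14, still past the threshold. On the MuSC array the processed signals of Sfrp1, Sfrp2 and Sfrp4 were 21.0, 49.0 and 75.6, all well above background. All 3 differences were smaller with normexp correction, so the size of their folds depends on the background correction.

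Of the Dickkopf genes, Dkk2 differed most. Dkk2 encodes a ligand of LRP co-receptors that can block or, in some settings, raise beta-catenin signalling. Its probe at chr3:131842357-131842416, plus strand, read 1.01 and 0.75 with vehicle, 0.04 and -0.40 with TSA and -3.89 in MuSC. The groups did not overlap. MuSC were 27.3-fold lower than vehicle Sca1+ cells (-4.77 ± 0.27, adjusted p = 0.00199), or -2.67 with normexp correction, from a MuSC signal of 16.2. TSA cells were 2.08-fold lower than vehicle cells (-1.06 ± 0.22, adjusted p = 0.105), by -0.96 on slide 1 and -1.15 on slide 2. Of all genes tested, 2.17% had a lower TSA difference than Dkk2.

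Dkk3, a divergent Dickkopf protein, showed the population difference without a TSA difference of 1 direction. It was at 3.70 and 3.37 with vehicle, 3.23 and 3.48 with TSA and 1.01 in MuSC (probe at chr7:119259556-119259615, minus strand). Vehicle and TSA arrays overlapped, and the TSA difference was -0.47 on slide 1 and 0.10 on slide 2, or -0.19 ± 0.20 in all (adjusted p = 0.595). MuSC lay 5.75-fold below vehicle Sca1+ cells (-2.52 ± 0.25, adjusted p = 0.00611).

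Among the ligands, Wnt5a, which signals mainly without beta-catenin, was at 1.73 and 1.53 with vehicle, 0.77 and 0.78 with TSA and -0.89 in MuSC (probe at chr14:29336664-29336723, plus strand). No group overlapped another. The MuSC level was 5.71-fold lower than in vehicle Sca1+ cells (-2.51 ± 0.19, adjusted p = 0.0036). The TSA level was 1.80-fold lower than with vehicle (-0.85 ± 0.16, adjusted p = 0.0869), by -0.96 and -0.74 within the slides. Wnt5b, its close relative, gave a flat profile of 0.43 and 0.62, 0.28 and 0.57, and 0.67 (probe at chr6:119382550-119382609, minus strand). Its vehicle and TSA arrays overlapped, and the MuSC array was just above the higher vehicle array. The difference was -0.10 ± 0.19 for TSA (adjusted p = 0.759, 95% interval -0.60 to 0.40) and 0.14 ± 0.23 for MuSC against vehicle Sca1+ cells (adjusted p = 0.698, -0.47 to 0.76), so changes of under about that size were not detectable with these arrays. Without TSA replicate 1 the Wnt5b difference for TSA turned to 0.043.

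Wnt7a, a ligand known to drive symmetric expansion of satellite stem cells, could not be placed. Its probe at chr6:91314653-91314712 (minus strand) gave processed signals of 5.43 and 3.22 with vehicle, 7.08 and 9.72 with TSA and 3.49 in MuSC. None was well above background, so no fold is given and a low level cannot be told from none.

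The CCN genes were highest with TSA or vehicle and lowest in MuSC, with smaller differences. Wisp1 (Ccn4), a matricellular protein linked to fibroblast growth, was read by a pair of probes on chromosome 15, at chr15:66754637-66754696 and chr15:66750958-66751017 (plus strand), of which the brighter is used. Their first 30 bases are given because they are the only check of one member by separate sequences.
Wisp1 probe 1: cattcctcatttttctcatgatctgtgtag
Wisp1 probe 2: ctaacgatatctttgctgacttggaatctt

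The first Wisp1 probe stood at 2.94 and 2.75 with vehicle, 2.99 and 3.16 with TSA and 2.05 in MuSC, and the second at 1.72 and 1.57, 1.81 and 1.76, and 1.03. In both, the TSA arrays lay above the vehicle arrays and MuSC below all. The TSA difference was 0.23 ± 0.17 (adjusted p = 0.434) by the first probe, by 0.06 and 0.40 within the slides. The MuSC difference from vehicle Sca1+ cells was -0.80 ± 0.20 (adjusted p = 0.0621). When every probe was tested on its own, the second probe gave 0.14 ± 0.16 and -0.61 ± 0.20 for these comparisons. Against TSA Sca1+ cells Wisp1 was lower in MuSC (-1.03 ± 0.20, adjusted p = 0.0481), the one member called there and not against vehicle cells. That call was lost under 9 of 14 alternatives. Among the 14, leaving out either vehicle array and using only the compared groups' arrays are the same fit.

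Wisp2 (Ccn5), which lacks the C-terminal domain of other CCN proteins, was at 3.03 and 2.99 with vehicle, 2.93 and 2.82 with TSA and 1.26 in MuSC (probe at chr2:163658717-163658776, plus strand). TSA lay just below vehicle, and MuSC well below. The MuSC level was 3.38-fold lower than in vehicle Sca1+ cells (-1.76 ± 0.18, adjusted p = 0.00697), and the TSA difference was -0.14 ± 0.15 (adjusted p = 0.593).

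**Figure D3:**
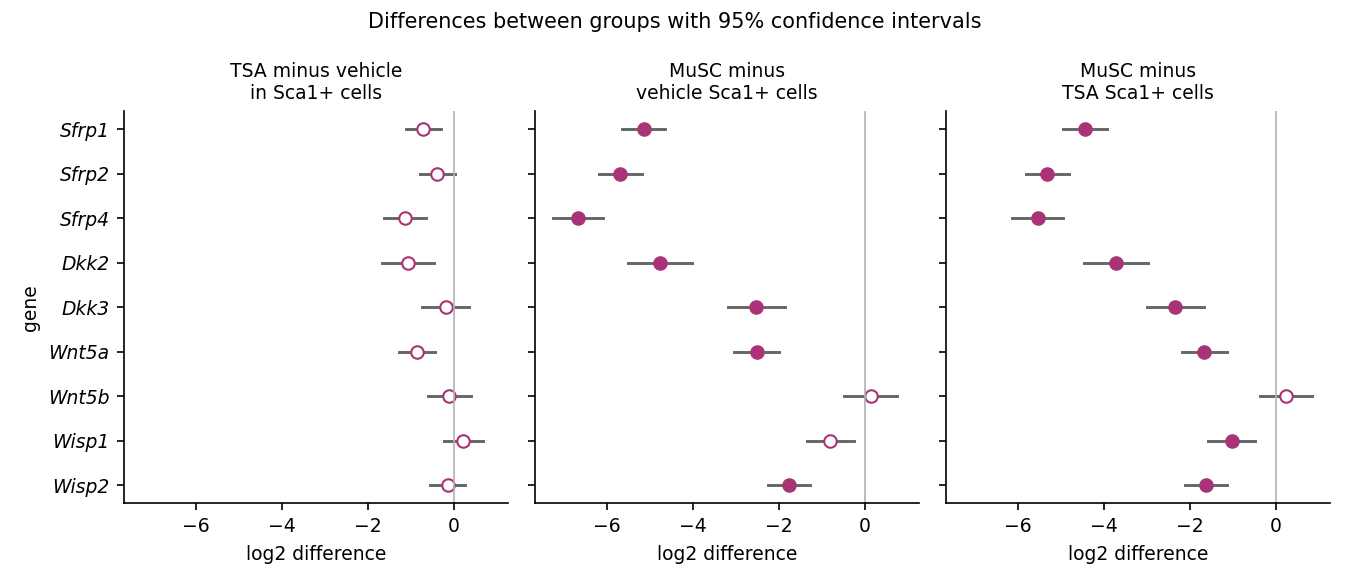
Log2 difference (x axis) of each tested member (y axis) with its 95% confidence interval from limma, in 3 panels for TSA minus vehicle in Sca1+ cells, MuSC minus vehicle Sca1+ cells and MuSC minus TSA Sca1+ cells. Filled points passed the adjusted threshold, 0, 7 and 8 of 9 in the panels from left to right, and Wnt5b is open in all panels.

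Ordered by level, Sfrp1, Sfrp2, Sfrp4, Dkk2, Wnt5a and Wisp2 ran vehicle, then TSA, then MuSC, Wisp1 ran TSA, vehicle, MuSC, Wnt5b had no order beyond its spread, and the means of Dkk3 ran vehicle, TSA, MuSC with the first pair overlapping. In that order the step between vehicle and TSA did not pass the threshold for any member. Vehicle and TSA arrays did not overlap in 7 of 9 members, 6 of them with TSA lower. Of all genes tested, 36.4% had TSA below vehicle without overlap and 22.9% above. The single MuSC array lay below both vehicle arrays in 8 of 9 members, and below both TSA arrays in 8 of 9. Over all genes tested it lay below them in 44.0% (vehicle) and 33.8% (TSA), and above them in 39.3% and 48.1%. The step from TSA to MuSC was -5.54 for Sfrp4, -5.31 for Sfrp2 and -4.44 for Sfrp1 (adjusted p = 0.00464 for each), -3.71 for Dkk2 (0.00616), -2.34 for Dkk3 (0.0121), -1.62 for Wisp2 (0.0138) and -1.66 for Wnt5a (0.0153). These calls lean on both TSA arrays: without TSA replicate 1, 4 of the 8 passed (Sfrp1, Sfrp2, Sfrp4 and Dkk2, adjusted p = 0.0498 each), and without TSA replicate 2, 0 did, nor did any other gene. The Wnt5a call was also lost without a filter on dim probes (adjusted p = 0.0518). The 7 members called against vehicle Sca1+ cells were each called in all 14 alternatives tried. There, leaving out either TSA array repeats the fit to the compared groups' own arrays, and no alternative varies the single MuSC array.

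**Figure D4:**
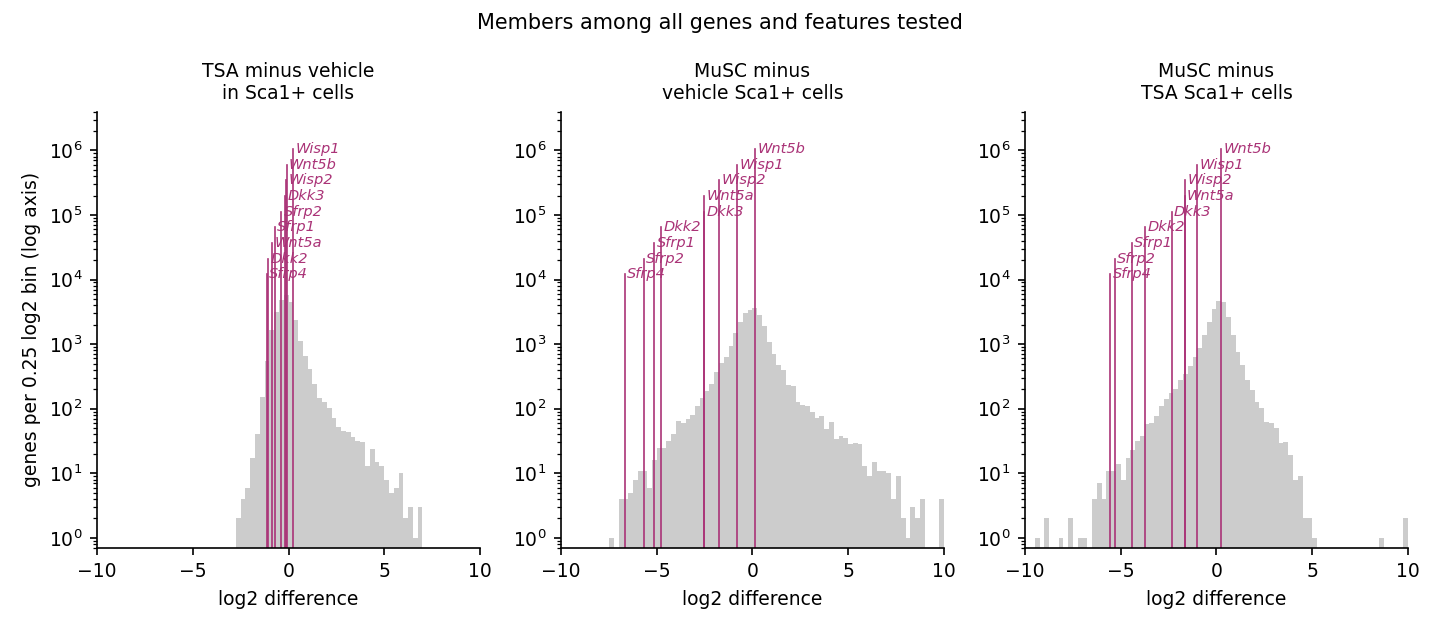
Number of genes and features per bin of 0.25 log2 units (y axis, log scale) by log2 difference (x axis), in grey, with the tested members marked by labelled lines, whose height carries no value, for the 3 comparisons. In the MuSC panels Sfrp1, Sfrp2, Sfrp4 and Dkk2 lie in the thin left tail, while for TSA all members lie between -1.13 and 0.23.

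The fibroadipogenic progenitor markers moved with the members. Leaving out Ly6a and Cd34, all 13 were lower in MuSC than in vehicle Sca1+ cells past the threshold, with a median of -3.89, and with TSA their median was -0.91 with 1 of 13 called lower. Pdgfra, which defines these progenitors, was at 4.83 and 4.87 with vehicle, 3.88 and 4.22 with TSA and -1.65 in MuSC. Satellite cell markers moved the other way, and without Itga7, 6 of 13 were called higher with TSA (median 2.05) and 12 of 13 in MuSC against vehicle Sca1+ cells (median 5.79). Both medians are the values of Myf5, which was not above background in vehicle Sca1+ cells. Myf5 passed the background filter only through the single MuSC array. Pericyte and smooth muscle markers were called higher in 10 of 14 with TSA (median 3.53) and in 14 of 14 in MuSC (median 5.08). Of 12 endothelial markers, 9 were called lower and 1 higher in MuSC (median -1.45), and 1 higher with TSA. Schwann cell markers were called higher in 6 of 10 with TSA and in 9 of 10 in MuSC. Of 6 tested mast cell markers, 5 were called higher with TSA (median 5.83) and 1 lower in MuSC. Of the 5, Cpa3, Cma1 and Fcer1a passed the background filter only through the TSA arrays, where they were high. Tpsab1 and Ms4a2 of that list did not pass it. Over all genes tested, 2.71% were called higher and 0.268% lower with TSA, and 10.5% and 11.7% in MuSC against vehicle Sca1+ cells. The part of these marker shifts in the members' differences was not tested.

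For each tested member, the 2 genes with the nearest profile over the 5 arrays were found among 15520 named genes, by the root mean square difference of log2 values after each gene's own mean was subtracted. For Sfrp1 the nearest was Ly6a, the gene of the sorting antigen Sca1 (0.0490), with 6.46 and 6.59, 5.89 and 5.71, and 1.46, and then Cpxm1 (0.105). Sfrp2 was nearest to the metalloprotease Mmp19 (0.0717) and to Aldh1a2, an enzyme of retinoic acid synthesis (0.0981). Sfrp4 was nearest to complement C3 (0.107) and Dpep1 (0.109), and Dkk2 to the transcription factor Osr1 (0.115) and the matrix gene Tnxb (0.122). Wnt5a was nearest to the lipase Lpl (0.0570) and Clec1a (0.0695), and Dkk3 to Csgalnact1 (0.0725) and Ptpru (0.0779). Wisp2 was nearest to B4galt4 (0.0224) and Thsd7a (0.0452), and Wisp1 to Prickle1, a planar polarity gene (0.0278), and Parp14 (0.0300). Wnt5b, whose profile was flat, was nearest to the mitochondrial ribosomal gene Mrpl34 (0.0164) and to Qtrt1 (0.0200). Among the members themselves the closest pair was Sfrp1 and Dkk2 (0.302). These distances describe 5 arrays and carry no test.

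The other genes of the pathway did not share the members' direction as a body. Over 9 lists with 95 genes, 79 were tested, of which 16 were called higher (20.3%) and 15 lower in MuSC against vehicle Sca1+ cells, beside 10.5% and 11.7% of all genes, with a median of -0.13. With TSA 5 were called higher (6.33%) and 1 lower (1.27%), beside 2.71% and 0.268%, with a median of -0.17. Between MuSC and TSA Sca1+ cells 12 were higher and 13 lower, beside 4.83% and 7.96%. Of 24 pathway genes called and followed in MuSC against vehicle Sca1+ cells, 6 lost the call in at least 1 setting other than a left-out array. No gene of any list passed for TSA against vehicle when either TSA array was left out.

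Of 16 other Wnt ligands, 10 were tested. Wnt10a showed the largest difference, from -4.89 and -5.17 with vehicle, where it was not well above background, to -0.73 and -0.75 with TSA and 2.43 in MuSC. The 3 groups stood apart without overlap. Against the lowest signals well above background this is at least 13.7-fold higher with TSA (adjusted p = 0.00424) and at least 124-fold higher in MuSC (adjusted p = 0.00141). Wnt6 rose from -3.07 and -3.05 to -0.87 and -0.70 with TSA (2.27 ± 0.16, adjusted p = 0.00982) and stood at 0.21 in MuSC (3.27 ± 0.19, adjusted p = 0.00202). Wnt11, which acts largely without beta-catenin, ran in the order of Wnt5a: 1.02 and 1.04, then -0.14 and -0.16 with TSA (-1.18 ± 0.14, adjusted p = 0.037) and -1.71 in MuSC (-2.74 ± 0.18, adjusted p = 0.0025). Wnt4 was called higher in MuSC, at least 5.61-fold, since it was not above background in vehicle Sca1+ cells. Wnt10b was called lower, at least 4.52-fold, since it was not above background in MuSC. The call of Wnt11 with TSA was lost without any one of the 4 Sca1+ arrays and, with adjusted p = 0.121, without a filter on dim probes. That of Wnt6 was lost without any one of the 4 too (adjusted p from 0.0617 to 0.111).

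Of 12 other secreted inhibitors, 8 were tested. Sfrp5, of the same family as Sfrp1, Sfrp2 and Sfrp4, went the opposite way to those members. Sfrp5 read -0.74 and -0.38 with vehicle, 3.38 and 3.41 with TSA and 4.85 in MuSC. Its groups did not overlap, and the rise was 3.96 ± 0.19 with TSA (adjusted p = 0.0046) and 5.41 ± 0.23 in MuSC (adjusted p = 0.00149). Wif1, a secreted inhibitor that binds Wnts directly, was at 3.14 and 2.80 with vehicle, 2.94 and 2.60 with TSA and -2.26 in MuSC (-5.23 ± 0.27, adjusted p = 0.0017). Its TSA difference was -0.20 ± 0.22 (adjusted p = 0.599). Sostdc1 was higher in MuSC (2.99 ± 0.26) and Igfbp4 lower (-2.05 ± 0.18). Frzb, above background on 1 of 2 vehicle arrays, passed in neither comparison with vehicle. It differed by 2.20 ± 0.53 in MuSC (adjusted p = 0.0531) and by 1.07 ± 0.43 with TSA (adjusted p = 0.239). Dkk1, Dkk4, Sost and Cer1 were not tested, being above background on 0 of 5 arrays.

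Among 7 tested R-spondins and their receptors, limma called 0 with TSA, with 1 at an unadjusted p under 0.05. In MuSC the agonists Rspo2 and Rspo3 were lower and the receptor Lgr5 higher. Rspo2 was not above background in MuSC, so it is at least 1.90-fold lower there than in vehicle Sca1+ cells. It passed the background filter only through the vehicle Sca1+ arrays, the higher side of this call. The Lgr5 call held in 8 of 13 alternatives and was lost without either vehicle array (adjusted p up to 0.0913), and that of Rspo2 was lost with normexp (0.07). Rspo3 went from 0.26 and 0.18 through -0.65 and -0.24 with TSA to -2.09 in MuSC (-2.31 ± 0.25, adjusted p = 0.00765). Of the other CCN genes, Nov (Ccn3) was at 2.10 and 2.17, 1.09 and 1.17 with TSA, and -0.66 in MuSC, where it was lower (-2.79 ± 0.18, adjusted p = 0.0025). Cyr61 (Ccn1) was higher in MuSC (2.29 ± 0.19, adjusted p = 0.00437). Ctgf (Ccn2), a fibrosis marker, was at 5.20 and 5.36, 6.14 and 6.51 with TSA, and 4.29, with neither difference from vehicle past the threshold (adjusted p = 0.0892 and 0.0554).

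On the receiving side, 17 Frizzled receptors and co-receptors were tested. With TSA limma called 0, with 3 at an unadjusted p under 0.05, and 5 were lower and 2 higher in MuSC. Ror2, a receptor of Wnt5a, was at 1.76 and 1.74, 1.27 and 1.56 with TSA, and -1.03 in MuSC (-2.78 ± 0.21, adjusted p = 0.00355). Fzd1 was lower in MuSC (-1.93 ± 0.20) and Fzd9 higher (1.95 ± 0.28). Neither Porcn nor Wls, which modify and export Wnt ligands, was called in any comparison. Of 16 tested genes of the beta-catenin machinery, limma called 0 with TSA, with 2 at an unadjusted p under 0.05, and in MuSC only Tcf7, a nuclear partner of beta-catenin, was called, higher by 4.73 ± 0.67 (adjusted p = 0.0144, at least 10.6-fold, since it was not above background in vehicle Sca1+ cells).

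Of 10 tested feedback targets of beta-catenin, 1 was called higher with TSA and 5 higher and 1 lower in MuSC against vehicle cells. Nkd1, an inducible antagonist, was at -0.82 and -0.83 with vehicle, 1.93 and 2.03 with TSA and 3.15 in MuSC, with rises of 2.81 ± 0.15 (adjusted p = 0.00572) and 3.98 ± 0.18 (adjusted p = 0.0015). Nkd2 ran the other way, at 5.17 and 5.45, 4.13 and 4.58, and 2.26 (-3.05 ± 0.28 in MuSC, adjusted p = 0.00529). Axin2, a common readout of this branch and above background on 1 of the 2 vehicle arrays, was at -4.25 and -5.00, -3.56 and -3.77, and -3.42, with adjusted p = 0.181 for TSA and 0.093 for MuSC. Of 11 planar polarity genes, Celsr1 was the one called with TSA, at least 5.71-fold higher (3.85 ± 0.37, adjusted p = 0.0214), and 3 were higher and 2 lower in MuSC. In vehicle Sca1+ cells Celsr1 and Celsr3 were not above background, so they are at least 2.58-fold and 1.74-fold higher in MuSC. Celsr3 passed the background filter only through the single MuSC array. The 3 higher calls are Celsr1, Celsr3 and Daam2. They held in 8 of 13, 7 of 13 and 11 of 14 alternatives, with adjusted p up to 0.704, 0.946 and 0.0736. The Celsr1 call was lost without either TSA array, that of Daam2 without either vehicle array, and that of Celsr3 without any one of vehicle replicate 2 and the TSA arrays. The TSA call of Celsr1 was lost under 2 settings besides those that leave out an array.

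**Figure D5:**
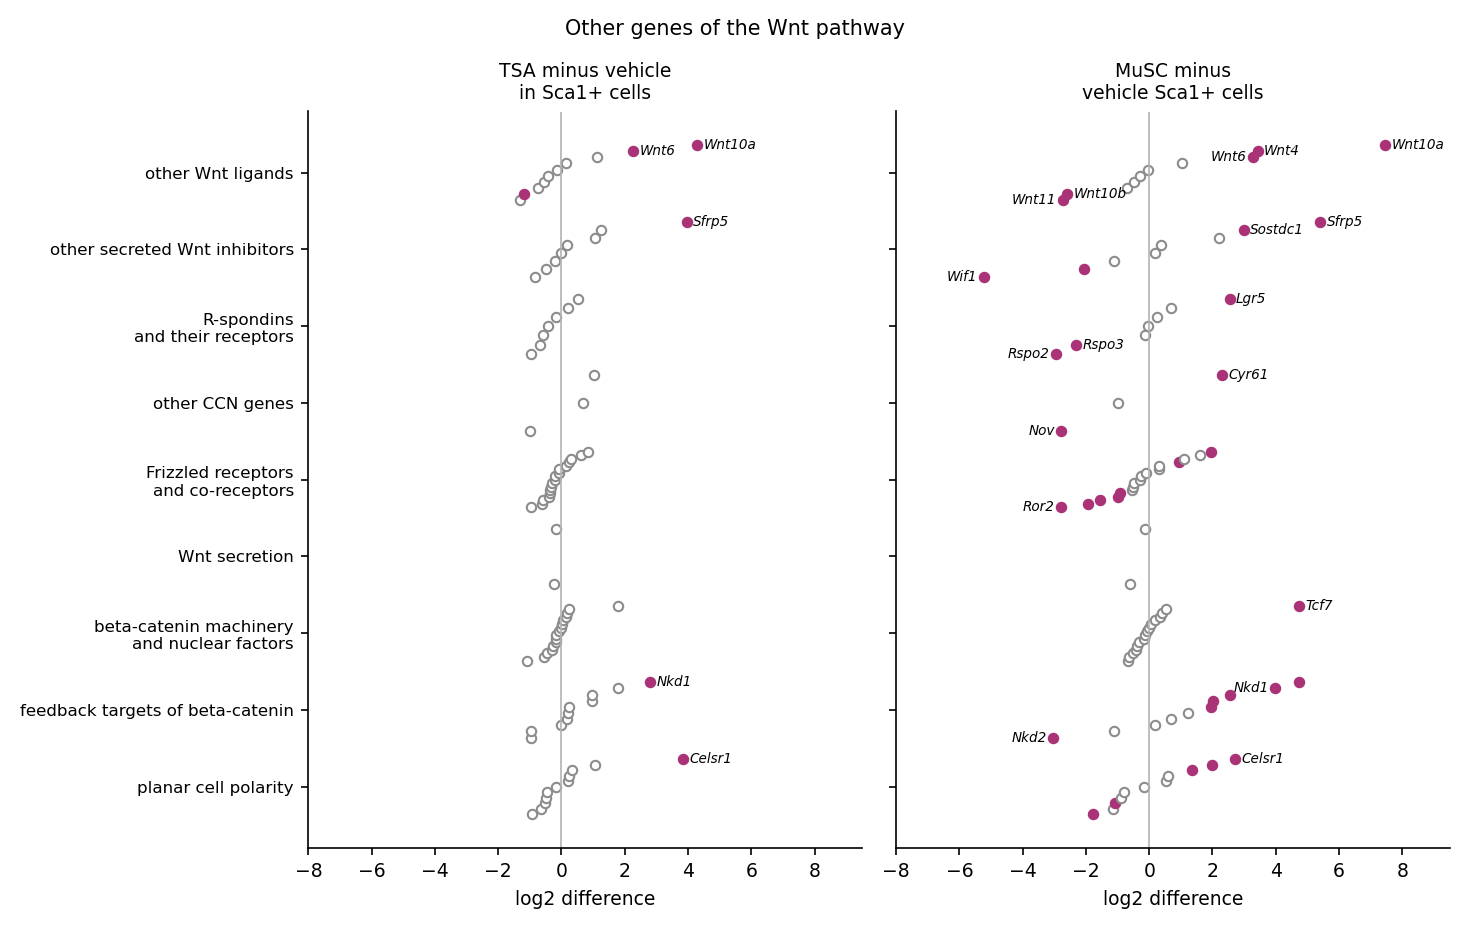
Log2 difference (x axis) of every tested gene of 9 Wnt pathway lists (y axis), 1 point per gene, for TSA minus vehicle in Sca1+ cells (left) and MuSC minus vehicle Sca1+ cells (right). Filled points passed the adjusted threshold, 5 higher and 1 lower on the left and 16 higher and 15 lower on the right, counted once per gene. A gene on more than 1 list is drawn in each, and the larger ones are named once.

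RefSeq promoter sequences (GRCm38.p6) covered 4 of the 10 members in 6 windows: Sfrp2, Dkk2, Wnt7a and Wnt5b. The 250 bases before the start of Sfrp2 and of Dkk2 are shown because these genes had a large difference between the populations. Capitals mark the TATA box (TATAAA) and the CCAAT box (CCAAT, or ATTGG on the other strand), which were searched on both strands with the TCF/LEF cores CTTTGAA and CTTTGAT and the E-box CANNTG. Sfrp2 lies at chr3:83766071-83766320 and Dkk2 at chr3:132085042-132085291, both on the plus strand.
Sfrp2: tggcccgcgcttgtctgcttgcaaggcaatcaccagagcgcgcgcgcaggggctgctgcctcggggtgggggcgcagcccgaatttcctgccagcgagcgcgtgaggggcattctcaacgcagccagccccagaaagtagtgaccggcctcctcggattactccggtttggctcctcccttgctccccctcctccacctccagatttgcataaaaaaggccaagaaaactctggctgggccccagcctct
Dkk2: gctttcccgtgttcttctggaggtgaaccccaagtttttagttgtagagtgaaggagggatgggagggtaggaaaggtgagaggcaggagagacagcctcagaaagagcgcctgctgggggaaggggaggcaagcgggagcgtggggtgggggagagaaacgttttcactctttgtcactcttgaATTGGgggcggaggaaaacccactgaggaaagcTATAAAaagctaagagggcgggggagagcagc

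The Sfrp2 window held 16 CpG and none of the motifs. The Dkk2 window held 7 CpG, 1 TATA box and 1 CCAAT box. Over all 32851 windows of this length, 12.4% held a TATA box and 33.8% a CCAAT box, and the median was 6 CpG (quartiles 2 and 16). Wnt7a, which gave no signal above background, had 34 CpG and none of these motifs. The 3 windows of Wnt5b held 35, 4 and 7 CpG and 1, 0 and 2 E-boxes, and 1 of them held CTTTGAT, as 3.21% of all windows do. An E-box was found in 66.2% of all windows. No TCF/LEF core was found in the Sfrp2 or Dkk2 window, which says only that these letters are not there.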

How the data were processed

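RNA of FACS-sorted cells was measured on 5 one-colour Agilent arrays in 3 groups. Scanner files hold intensity values from Agilent Feature Extraction 10.7.3.1 on mm9 probe positions, per the file headers, and the authors' deposited value table holds log2 values that rank each array's probes as the processed signal does, with the same median in every column. How those were normalized is not given in the sources used here. From the processed signal, log2 minus the 75th percentile of each array was taken. Spots marked as outliers were dropped, spots of 1 probe averaged, and the probe with the highest mean kept per gene. Genes well above background on every array of a group were tested (26094 of 36409). The model was limma (version 3.58.1, R 4.3.3) over all 5 arrays in 3 groups, with Benjamini-Hochberg adjustment over all genes. The fit was also run on simulated data with independent noise and no slide effect, which cannot test for such effects in these arrays. The number of arrays limits the precision. Members and lists were chosen with earlier results of these data known. Up to 4 called genes per list, by size of difference, or else the 2 largest, were to be named, and Axin2, Pdgfra, Myh11, Pax7, Itga7, Cd34, Scx and Egr1 were chosen after their values were seen. The alternatives were normalization, filter, probe rule, replicate block and left-out arrays, with normexp (a background correction) on median signals (offset 50) added after seeing the data. A fit to only the arrays of the groups compared was tried too. For TSA against vehicle it equals the main fit. For a comparison with MuSC it equals the fits that leave out an array of the group not compared. Counts of alternatives include these repeats.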

Additional observations from a re-analysis of the deposited data

How the results depend on the processing

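The 7 members called lower in MuSC than in vehicle Sca1+ cells kept that call under all 14 alternatives. These are not 14 separate fits. In that comparison, leaving out either TSA array gives the same fit as the groups' own arrays alone. No alternative varies the single MuSC array. For TSA against vehicle, normexp called 4 members lower and 1253 genes higher and 5875 lower, in place of 708 and 70. Testing only probes above background on all 5 arrays called 1 member lower, beside 559 genes higher and 91 lower of 22365. Without a filter on dim probes 280 genes were higher and 3 lower, and with every probe on its own 46 were lower. The replicate block, which pairs arrays by number and so by slide, gave 932 higher and 166 lower and changed no member call there. Between MuSC and TSA Sca1+ cells it ended the call of Wisp1 (adjusted p = 0.0674). The deviations of replicate 1 correlated at 0.336 between vehicle and TSA, with 2 pairs, so the numbers do not settle a pairing. Leaving out 1 array gave 0 to 319 genes higher and 0 to 2 lower, with 0 called by limma without TSA replicate 1 (4914 at an unadjusted p under 0.05) or replicate 2 (3100). Wnt5b ranged from -0.24 to 0.043 when 1 array was left out, turning positive without TSA replicate 1, and Tcf7 went from 1.80 to -0.34 with normexp. The cause was not tested.

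For MuSC against vehicle Sca1+ cells, no filter gave 1571 higher and 1809 lower and the groups' own arrays alone 1590 and 1838, with 1590 to 2010 and 1838 to 2288 when 1 array was left out. For MuSC against TSA Sca1+ cells, no filter gave 324 and 983, and the groups' own arrays alone 805 higher. Leaving out 1 array gave 0 to 805 higher and 0 to 1542 lower, the fewest without TSA replicate 2, and 0 to 7 members (0 and 4 without a TSA array, 5284 genes at an unadjusted p under 0.05 without TSA replicate 2, with 0 called by limma). With 2 residual degrees of freedom and 1 MuSC array, small differences cannot be seen. The planned normexp on mean signals was not run, because the files of slide 2 do not hold that column.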
